A study of Mus musculus with 6 samples.

Results

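The genes described here encode 7 matricellular proteins, tenascin C (Tnc), periostin (Postn), SPARC and the thrombospondins Thbs1 to Thbs4, together with fibronectin (Fn1). They were chosen by gene name, with earlier results of these data known, and all 8 names were found among the 20015 rows of the deposited table. Bulk RNA-seq was made of mouse quadriceps, the extensor muscle of the knee, in 6 libraries. There were 3 libraries of the injured group, named for damage to the ACL (anterior cruciate ligament, a stabiliser of the knee joint), and 3 non-injured ones, and each group carries the replicate letters A, B and C. The extraction protocol describes total RNA while the deposited table is named myonuclear, so whether the RNA is that of whole muscle or of its nuclei is not settled here. The labels used here give no strain, genotype, sex, age or time after injury, and they do not say how the ligament was injured or whether non-injured muscle came from other animals or the opposite limb. The organism label is mouse while the design text speaks of human tissue; since 19342 rows (96.6%) have the start and end that the mouse annotation GENCODE M21 gives for their symbol, the values were read as mouse, with positions on mm10.

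Matricellular proteins are secreted into the extracellular matrix but serve less as building blocks than as signals, binding integrins and other receptors, growth factors and collagen. Most are scarce in resting adult tissue and are made during development, wound healing and mechanical loading. Fibronectin is a structural glycoprotein that cells assemble into fibrils through integrins, and its fibrils are an early scaffold on which collagen is laid down. In skeletal muscle these proteins are made largely by cells between the fibres, and tenascin C and fibronectin are known as parts of the niche of satellite cells, the stem cells of muscle.

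Totals ran between 6.45 and 7.50 M counts in injured and between 7.23 and 8.75 M in non-injured libraries. Genes defining muscle fibres were all present, 15 of 15, at a summed 207100 to 215800 CPM (counts scaled to the same total in every library) in injured and 223400 to 231700 CPM in non-injured libraries. The first principal component (38.4% of the variance) separated the groups, and along the second (24.3%) both letter A libraries lay apart from the other 4. RNA of the mitochondrial genome took 9.53% to 11.2% of counts in injured and 6.20% to 7.52% in non-injured libraries, and the part of this difference in the results was not tested.

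Tnc and Postn carried the largest changes of the 8, and the bases before their starts are shown beside those of a thrombospondin gene that rose 1.96-fold, Thbs2, and of 1 that did not pass the test, Thbs4. Sequences are the 250 bases before the RefSeq start, read on the strand of the gene (GRCm38.p6, the assembly of mm10), 5′ to 3′. Capitals mark any of 5 motifs searched on both strands, the TATA box TATAAA, the AP-1 site TGANTCA, the TEAD site GGAATG, the GC box GGGCGG and the CArG box of serum response factor.
Tnc (chr4:64047016-64047265, minus strand): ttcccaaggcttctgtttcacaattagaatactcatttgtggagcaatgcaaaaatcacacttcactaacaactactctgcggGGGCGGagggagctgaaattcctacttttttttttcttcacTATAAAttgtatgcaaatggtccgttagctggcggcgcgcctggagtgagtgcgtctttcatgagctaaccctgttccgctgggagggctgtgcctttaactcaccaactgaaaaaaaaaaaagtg
Postn (chr3:54360857-54361106, plus strand): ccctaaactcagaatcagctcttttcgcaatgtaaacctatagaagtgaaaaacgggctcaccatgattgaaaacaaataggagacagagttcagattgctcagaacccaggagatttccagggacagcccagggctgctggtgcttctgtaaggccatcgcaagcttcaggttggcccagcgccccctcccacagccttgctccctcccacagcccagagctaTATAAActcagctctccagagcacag
Thbs2 (chr17:14694263-14694512, minus strand): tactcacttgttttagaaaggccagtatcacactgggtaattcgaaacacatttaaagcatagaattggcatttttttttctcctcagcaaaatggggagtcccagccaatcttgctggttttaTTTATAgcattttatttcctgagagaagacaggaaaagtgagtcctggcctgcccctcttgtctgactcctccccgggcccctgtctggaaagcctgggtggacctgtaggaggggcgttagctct
Thbs4 (chr13:92794819-92795068, minus strand): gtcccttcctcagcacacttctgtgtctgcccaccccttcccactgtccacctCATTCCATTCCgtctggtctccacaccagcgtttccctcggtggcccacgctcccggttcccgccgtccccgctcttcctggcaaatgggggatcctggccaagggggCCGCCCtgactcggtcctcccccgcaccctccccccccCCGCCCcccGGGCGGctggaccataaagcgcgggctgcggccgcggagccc

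The letters TATAAA stood 21 to 26 bases before the start of Postn, 121 to 126 bases before that of Tnc and, on the opposite strand, at the same distance of 121 to 126 bases before that of Thbs2. They occurred in 12.4% of all 32851 RefSeq promoter windows of this length. The Thbs4 window was rich in G and C, 70.8% against 44.8% for Tnc, 52.0% for Postn and 46.8% for Thbs2, with a median of 52.4% over all windows. It held 3 GC boxes, a motif found in 32.7% of all windows, and 2 TEAD sites on the opposite strand that share 1 base; the TEAD letters were found in 12.6% of windows. The Tnc window held 1 GC box. None of these 4 windows held the AP-1 letters (6.75% of all windows) or the CArG box (1.47%). RefSeq lists a further start for Tnc, 79 bases downstream, and for Postn, 1842 bases from the GENCODE start, and the windows shown are those nearest to the GENCODE start. A match to such letters is a description of the sequence and not evidence of binding.

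mRNA of the group was higher in injured quadriceps. The 8 genes together took 466, 296 and 375 CPM in injured libraries A, B and C, against 139, 155 and 147 CPM in non-injured libraries A, B and C. Tnc, Postn, Fn1, Sparc and Thbs2 rose, 5 of 8, and 0 fell (edgeR quasi-likelihood test on all genes, Benjamini-Hochberg adjusted p under 0.05), where 0.715% of the 16095 genes tested were higher and 0.0311% lower. In 6 of the 8 every injured library lay above all 3 non-injured ones, as was so for 11.9% of the genes tested. Since the 8 were chosen with earlier results known, these shares are set beside them as a description only. All 8 passed the filter on low counts and all had a positive log2 fold change, with a median of 0.96 against 0.00 over all genes. With the letter as a replicate block Thbs4 rose as well, making 6 of 8 higher and 0 lower, in a fit that called 3.21% of all genes higher and 2.65% lower. The count was 3 when injured A or C, or non-injured B or C, was left out, 4 without non-injured A and 5 without injured B. In bulk RNA, more cells of a type and more RNA per cell cannot be told apart.

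**Figure D1:**
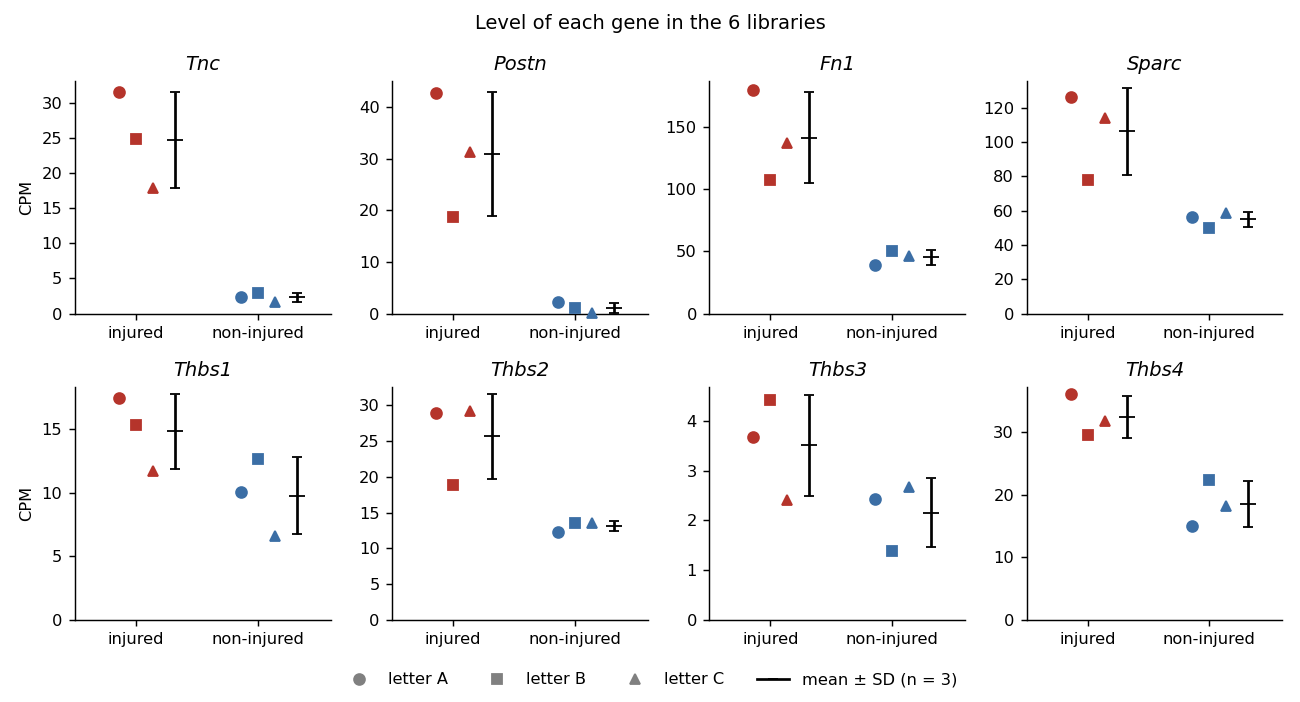
CPM (linear axes from 0) of each of the 8 genes in the 3 injured and 3 non-injured libraries; marker shapes give the letter and the bars mean ± SD (n = 3). Groups are apart for Tnc, Postn, Fn1, Sparc, Thbs2 and Thbs4 and overlap for Thbs1 and Thbs3.

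Tnc encodes tenascin C, a large multi-armed glycoprotein of embryonic, healing and tendon-associated matrix (chr4:63959785-64047015, minus strand, 27 merged exons). It had 31.5, 24.8 and 17.8 CPM in injured libraries A, B and C, against 2.42, 2.87 and 1.61 CPM in non-injured libraries A, B and C. The lowest injured library thus lay far above the highest non-injured one. Mean levels were 24.7 ± 6.87 CPM in injured and 2.30 ± 0.64 CPM in non-injured libraries (SD, n = 3 each), a log2 fold change of 3.40 ± 0.28 (SE; 95% interval 2.79 to 4.01; edgeR adjusted p = 0.000184). By p it ranked 1 among all genes tested. The call was kept in all 14 alternative fits, with log2 fold changes from 3.17 to 3.58. Within letters A, B and C the log2 differences were 3.57, 3.02 and 3.27.

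Postn encodes periostin, a secreted protein of bone lining, ligament and healing tissue that binds integrins and takes part in collagen assembly (chr3:54361109-54391037, plus strand, 22 merged exons). It had 42.7, 18.6 and 31.3 CPM in injured libraries A, B and C, against 2.17, 1.03 and 0.134 CPM in non-injured libraries A, B and C. In counts this was 279, 122 and 220 in injured and 17, 9 and 1 in non-injured libraries. The non-injured values differed widely among themselves, with an SD of 91.7% of their mean against 39.0% in injured libraries. The log2 fold change was 4.76 ± 0.47 (SE; 95% interval 3.76 to 5.77; edgeR adjusted p = 0.00045), the greatest of the 8 genes and rank 3 of all genes tested. Its size rests on the few non-injured counts, and without non-injured A, which holds 17 of the 27, it was 5.59. The gene stayed past the threshold in all 14 alternatives, with adjusted p up to 0.0215.

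Fn1, the fibronectin gene (chr1:71585520-71653200, minus strand, 45 merged exons), was the most abundant of the 8 in injured muscle by count. It had 179, 107 and 137 CPM in injured libraries A, B and C, against 38.6, 50.6 and 46.2 CPM in non-injured libraries A, B and C. Every injured library held more than 2 times the CPM of every non-injured one. The log2 fold change was 1.64 ± 0.19 (SE; 95% interval 1.23 to 2.05), or 3.12-fold (edgeR adjusted p = 0.00183). Letter A showed the greatest log2 difference, 2.21, and letters B and C 1.07 and 1.56. The call was kept in all 14 alternatives, the smallest value being 1.33 without both letter A libraries. The 17 annotated transcripts share 1 row in the table, so its spliced forms, among them those with the extra domains of tissue fibronectin, were not told apart.

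Sparc encodes a collagen-binding glycoprotein, also called osteonectin, that acts in collagen processing and basement membranes (chr11:55394500-55423183, minus strand, 12 merged exons). It had 126, 77.8 and 114 CPM in injured libraries A, B and C, against 56.4, 50.1 and 58.5 CPM in non-injured libraries A, B and C. Non-injured libraries lay close together, and injured B lay nearest to them. The log2 fold change was 0.95 ± 0.18 (SE; 95% interval 0.57 to 1.33), or 1.93-fold (edgeR adjusted p = 0.031). The call was lost without injured A or C, at adjusted p of 0.0647 and 0.115, and without non-injured B or C, at 0.144 and 0.18, and was kept in the other 10 of 14 alternatives, where adjusted p went down to 0.000382. Log2 differences within letters A, B and C were 1.16, 0.64 and 0.96.

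Thrombospondin genes had log2 fold changes from 0.59 to 0.97, below those of tenascin C, periostin and fibronectin, a difference between genes that was not tested. Thbs1 and Thbs2 form trimers, carry the type 1 repeats that bind CD36 and restrain blood vessel growth, and Thbs1 can also activate latent TGF-beta. Thbs3 and Thbs4 form pentamers and lack those repeats, and Thbs4 is known from tendon, heart and skeletal muscle, where it takes part in attachment of the fibre membrane to the matrix. Of these 4 genes, Thbs2 passed the test and Thbs1, Thbs3 and Thbs4 did not.

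Thbs2 (chr17:14665500-14694235, minus strand, 21 merged exons) had 28.9, 18.8 and 29.2 CPM in injured libraries A, B and C, against 12.2, 13.5 and 13.5 CPM in non-injured libraries A, B and C. Non-injured values had the smallest spread of the 8 genes, an SD of 5.68% of the mean, and injured B was again the lowest injured library. The log2 fold change was 0.97 ± 0.20 (SE; 95% interval 0.55 to 1.39), or 1.96-fold (edgeR adjusted p = 0.0441). This call lies near the threshold and held in 6 of 14 alternatives, with adjusted p from 0.00495 (replicate block) to 0.209 (without non-injured C). It was lost with no filter on counts (0.0514), with limma-voom (0.0701), without both letter A libraries (0.0676) and without any 1 library other than injured B.

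Thbs4 (chr13:92751590-92794818, minus strand, 22 merged exons) lay just beyond the threshold. It had 36.1, 29.5 and 31.8 CPM in injured libraries A, B and C, against 14.9, 22.4 and 18.2 CPM in non-injured libraries A, B and C. The groups did not overlap. The log2 fold change was 0.81 ± 0.18 (SE; 95% interval 0.42 to 1.19), or 1.75-fold (edgeR adjusted p = 0.059). With the replicate block it was 0.82 ± 0.16 (SE, adjusted p = 0.00946), and it also passed with DESeq2 (adjusted p = 0.0206) and upper quartile scaling (0.0432). In the other 11 alternatives adjusted p ran up to 0.249. Within letters A, B and C the log2 differences were 1.26, 0.40 and 0.79.

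Thbs1 (chr2:118111876-118127133, plus strand, 22 merged exons) had 17.5, 15.3 and 11.7 CPM in injured libraries A, B and C, against 10.1, 12.6 and 6.56 CPM in non-injured libraries A, B and C. Injured C lay below non-injured B, so the groups overlapped. The log2 fold change was 0.59 ± 0.25 (SE; 95% interval 0.05 to 1.14, not adjusted for the number of genes), with an edgeR adjusted p of 0.284. It passed in 0 of 14 alternatives, the lowest adjusted p being 0.0698 with the replicate block. A change of up to 2.20-fold lies within that interval, so these 6 libraries do not show that Thbs1 stayed level.

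Thbs3 (chr3:89215180-89226837, plus strand, 20 merged exons) was the scarcest of the 8 by mean count, with 24, 29 and 17 counts in injured libraries A, B and C and 19, 12 and 20 counts in non-injured libraries A, B and C. In CPM it had 3.67, 4.43 and 2.42 in injured and 2.42, 1.38 and 2.68 in non-injured libraries, and the groups overlapped. Its log2 fold change of 0.70 ± 0.42 (SE; 95% interval -0.21 to 1.61) did not pass (edgeR adjusted p = 0.459), and letter C ran the other way from letters A and B, with -0.12 against 0.57 and 1.56. The Thbs3 model shares 318 exonic bases, 6.59% of its exons, with Mtx1 on the opposite strand, a gene with a mean of 67.4 counts whose log2 fold change was 0.14 ± 0.21 (SE; edgeR adjusted p = 0.79). The strand setting of the counting is not given in the sources used here, so part of the Thbs3 counts may belong to Mtx1. Models on the opposite strand also share 176 exonic bases with Tnc, 292 with Fn1 and 208 with Thbs1, or 2.26%, 2.50% and 3.42% of their exons, and those models are not rows of the table.

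**Figure D2:**
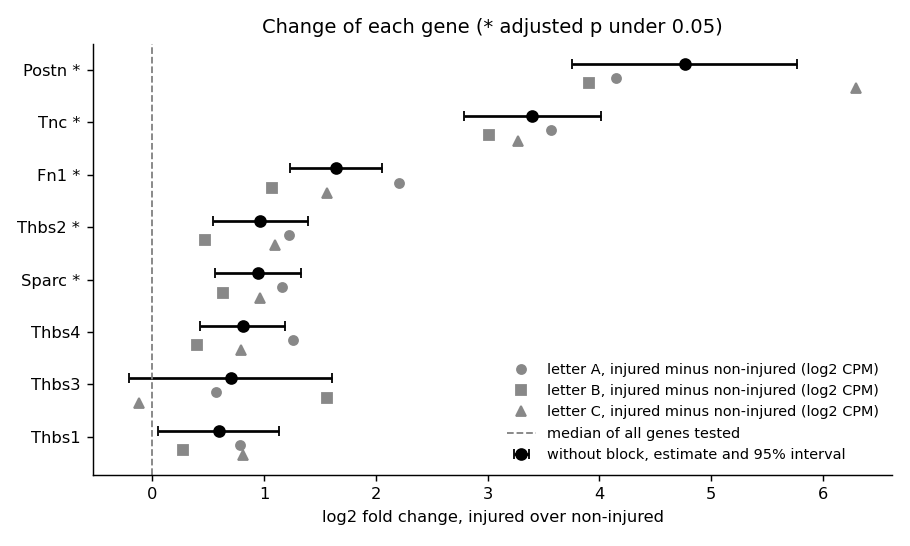
Log2 fold change of the 8 genes, injured over non-injured, with its 95% interval (black, edgeR without a block) and the difference within each letter (grey, log2 CPM with 2 counts added); the dashed line is the median of all genes tested, 0.00. Postn and Tnc stand at 4.76 and 3.40, Fn1 at 1.64 and the other 5 between 0.59 and 0.97.

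Levels can be ordered between the 8 genes only per length. Counts were divided by the length of the merged exons and scaled to the same sum in every library (TPM, a level per length). This scales libraries otherwise than CPM do, since Sparc had 126 and 114 CPM but 48.2 and 31.4 TPM in injured A and C. TPM therefore serve here to order genes, and their SD includes this scaling. The small RNA Rn7s2 took 7.51% to 11.6% of a library's counts, and its part in this was not tested. In injured muscle the mean TPM was 34.7 ± 12.3 for Sparc, 15.1 ± 6.20 for Fn1, 12.2 ± 3.21 for Thbs4, 4.50 ± 1.40 for Thbs2, 4.46 ± 2.36 for Postn, 4.01 ± 1.75 for Tnc, 3.05 ± 1.08 for Thbs1 and 0.904 ± 0.331 for Thbs3 (SD, n = 3). Neighbours in that order overlapped between Fn1 and Thbs4 and all along Thbs2, Postn, Tnc and Thbs1, and the libraries of Sparc and Fn1, of Thbs4 and Thbs2, and of Thbs1 and Thbs3 did not overlap. In non-injured muscle the order was Sparc (19.2 ± 2.32 TPM), Thbs4 (7.40 ± 1.20), Fn1 (5.09 ± 0.531), Thbs2 (2.47 ± 0.129), Thbs1 (2.11 ± 0.586), Thbs3 (0.597 ± 0.210), Tnc (0.389 ± 0.0963) and Postn (0.169 ± 0.159). There the ranges of Thbs2 and Thbs1 overlapped, as did those of Thbs3 with Tnc and Tnc with Postn. Within each single non-injured library Tnc lay above Postn on this merged length. Sparc was the most abundant transcript of the 8 in both groups, while Tnc and Postn, the lowest in non-injured muscle, lay among the middle genes in injured muscle.

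The length used matters most for Postn. Its merged exons span 8.70 kb and its longest principal transcript 3.19 kb, and on that shorter length its mean was 12.2 ± 6.44 TPM in injured and 0.462 ± 0.435 TPM in non-injured libraries, which placed it between Thbs4 and Thbs2 in injured muscle and above Tnc in both groups. Against all rows with a length, mean TPM of Tnc stood at the 65.8 percentile in injured and the 18.5 percentile in non-injured libraries, that of Postn at 68.8 and 9.10, that of Fn1 at 91.3 and 69.1, and that of Sparc at 96.3 and 92.3.

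The make-up of the group differed between the groups of libraries. Tnc took 5.31%, 6.36% and 3.58% of the 8 genes' summed TPM in injured libraries A, B and C, against 1.15%, 1.27% and 0.72% in non-injured libraries A, B and C. Postn took 6.42%, 4.28% and 5.63% in injured and 0.916%, 0.408% and 0.0536% in non-injured libraries. The share of Fn1 was 18.9% ± 1.04 in injured and 13.6% ± 1.36 in non-injured libraries (SD, n = 3 each), with no overlap. Sparc held 43.9% ± 3.07 in injured and 51.3% ± 5.16 in non-injured libraries, with an overlap. The 4 thrombospondins kept the same order by mean share in both groups, with Thbs4 first at 15.8% ± 1.87 in injured and 19.8% ± 3.37 in non-injured libraries.

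**Figure D3:**
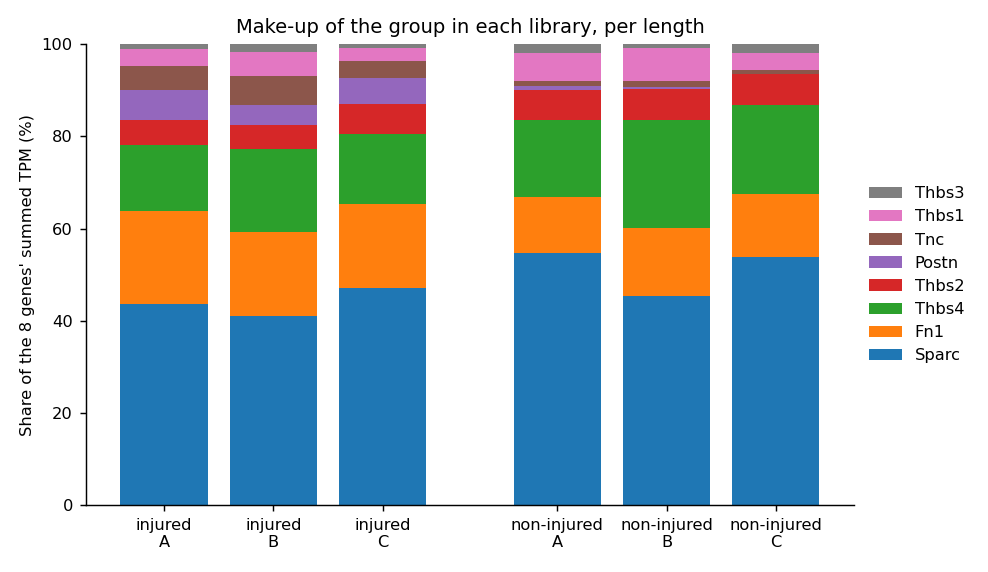
Share of each gene in the summed TPM of the 8 genes (percent, stacked to 100) in each injured and non-injured library. Sparc is the widest band in every library, and the bands of Postn and Tnc are wider in the injured libraries, 4.28% to 6.42% and 3.58% to 6.36%.

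Differences between the groups varied with the letter. Within letter A the log2 differences of Fn1, Sparc, Thbs2 and Thbs4 were 2.21, 1.16, 1.23 and 1.26, and within letter B they were 1.07, 0.64, 0.47 and 0.40, lower in each of the 4. Injured B had the lowest CPM of the injured libraries for Postn, Fn1, Sparc, Thbs2 and Thbs4, but the highest for Thbs3. Across the 6 libraries Pearson correlations of log2 CPM between members ran from 0.34 (Thbs1 with Thbs3) to 0.98 (Sparc with Thbs2). These describe 6 libraries that share the difference between the groups.

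The genes most like each member over these 6 libraries were looked for among 9059 genes with a mean of at least 50 counts, by Pearson r of log2 CPM. For Tnc they were Card14, Arhgdia and Tubb5 (r = 0.99 each), for Postn Efhd2, mt-Nd5 and Msn (0.99 each), and for Fn1 Rpl3-ps1, Klf3 and Hyou1 (0.996, 0.996 and 0.991). For Sparc they were Mob1a, Lox and Septin8 and for Thbs2 Anxa5, Fbn1 and Septin8, with r from 0.987 to 0.996. Thbs4 was nearest to Map4k4, Ssx2ip and Spaca6 (0.999, 0.991 and 0.990), Thbs1 to Coa5, Slc36a1 and 2410002F23Rik (0.97, 0.96 and 0.96), and Thbs3 to C2cd2l, Hmgn1 and Kansl2 (0.99, 0.98 and 0.97). Lox, which cross-links collagen, and Fbn1, the fibrillin of elastic microfibrils, were the matrix genes among them. A high r over 6 libraries says little of size, since Hyou1 had a log2 fold change of 0.17 beside 1.64 for Fn1. Rpl3-ps1 is a pseudogene that can share reads with its parent gene, so its value is uncertain.

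Most other matricellular genes did not pass the test. Of 30 symbols, older names of the CCN genes included, 22 were in the table and 19 passed the filter; 1 rose, Spp1, and 0 fell, with a median log2 fold change of 0.16 and 6 at an unadjusted p under 0.05, 5 of them positive. Spp1, osteopontin, a cytokine-like matrix protein of macrophages and bone, had a log2 fold change of 7.44 ± 0.62 (SE; edgeR adjusted p = 0.000184). It had 204 counts over the injured libraries and 1 over the non-injured. Scaled to library size, these counts gave a ratio of 244 (exact 95% interval 43.3 to 9680, counting error only). With the replicate block 4 rose, Spp1, Ccn2, Tgfbi and Ecm1, the last 3 named after their values were seen. Ccn1, known with Ccn2 as a target of mechanical signalling, had 62.3 ± 14.98 CPM in injured and 63.6 ± 27.9 CPM in non-injured libraries, and Tnxb, the tenascin of loose connective tissue, 136 ± 30.1 CPM in injured and 122 ± 24.7 CPM in non-injured libraries (SD, n = 3 each); both were picked out after their values were seen and neither passed.

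Of 25 integrins, syndecans, scavenger and other receptors of these proteins, 24 passed the filter, 1 rose and 0 fell, with a median log2 fold change of 0.34. An unadjusted p under 0.05 was reached by 11 of the 24, 10 with a positive and 1 with a negative log2 fold change. Over all 16095 genes tested, the unadjusted edgeR p of Thbs1, 0.0347, ranked 1963, so more genes than that lay under 0.05. In 10 of the 24 every injured library lay above all 3 non-injured ones, as was so for 11.9% of the genes tested. In 2 every injured library lay below, a share that was not computed over all genes. The gene that rose, Stab1, encodes stabilin-1, a scavenger receptor of macrophages that takes up SPARC; it had 26.3 ± 6.30 CPM in injured and 9.66 ± 2.58 CPM in non-injured libraries (SD, n = 3 each; edgeR adjusted p = 0.0138), and did not pass when injured C, or either of non-injured B and C, was left out. With the block 5 rose and 1 fell, the gene that fell being Itga4, a subunit of fibronectin receptors (log2 -0.56, blocked adjusted p = 0.0148), named after its values were seen. Itgb1, the beta chain shared by most fibronectin receptors, was among the 5, with 142 ± 17.3 CPM in injured and 101 ± 8.57 CPM in non-injured libraries (SD, n = 3 each; adjusted p = 0.128 without and 0.0118 with the block), and was likewise named afterwards. Of 16 genes that link integrins to the cytoskeleton 0 passed in edgeR, 2 had an unadjusted p under 0.05, 0 passed with DESeq2 or limma-voom and 1, the talin gene Tln1, rose with the block and was named after its values were seen. In that list Tns1 and Rock2, the most abundant, had log2 fold changes of -0.11 ± 0.16 and -0.09 ± 0.23 (SE).

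Of 16 genes listed under the latent TGF-beta system 1 rose, Ltbp2, a protein of microfibrils that is listed by its family name. It had 8.43 ± 3.15 CPM in injured and 1.26 ± 0.73 CPM in non-injured libraries (SD, n = 3 each, edgeR adjusted p = 0.0153, mean of 33.2 counts). An unadjusted edgeR p under 0.05 was reached by 4 of the 16, all positive. Among them Tgfb1, named after its values were seen, had a log2 fold change of 1.08 ± 0.33 (SE, edgeR adjusted p = 0.143), with the groups apart. The median of the list was 0.09, 0 fell, and with the block 4 rose. Ltbp2 did not pass when non-injured C was left out, nor with limma-voom, where 0 of the list rose.

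Collagens and their enzymes, which periostin, SPARC and fibronectin bind or guide, rose as well. Of 12 fibrillar collagens and matrix partners 8 rose and 0 fell, with a median log2 fold change of 1.15, and with the replicate block 11 rose and 0 fell. The 3 that rose with the block alone, Col5a1, Col5a3 and Serpinh1, had edgeR adjusted p of 0.059, 0.205 and 0.0584 without it and are named after their values were seen. Col5a2, Col1a1 and Col3a1, chains of fibrillar collagen, rose 4.11-fold, 5.90-fold and 4.47-fold (edgeR adjusted p = 0.000233, 0.00101 and 0.00287). Lox rose 4.15-fold, Col1a2 3.62-fold and Fbn1 2.22-fold (adjusted p = 0.00287, 0.00435 and 0.0239). Without 1 library the count of the list ran from 4 (without non-injured C) to 7, with 5 without injured C; Col1a2 did not pass when non-injured C was left out, and Fbn1 when injured C, or either of non-injured B and C, was.

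Markers of cells that can make these proteins did not all move with them. Of 16 markers of fibro-adipogenic progenitors, the main matrix-making cells between fibres, 0 passed in edgeR and 3 had an unadjusted p under 0.05. The number under 0.05 among all 16095 genes tested is above 1963, the rank of Thbs1 at its unadjusted edgeR p of 0.0347. With DESeq2 or limma-voom 0 of the 16 passed, and 1, Cxcl14, rose with the block. The median log2 fold change of the list was 0.13, and all 16 had a row. The most abundant, Gsn and Dcn, had log2 fold changes of -0.31 ± 0.14 and 0.00 ± 0.16 (SE). Pdgfra, Pi16 and Cxcl14, the 3 under 0.05, had 0.45 ± 0.17, 0.61 ± 0.21 and 0.61 ± 0.18 (SE), with every injured library above all 3 non-injured ones, and are named after their values were seen. The list summed to 621 to 746 CPM in injured and 717 to 800 CPM in non-injured libraries, of which Gsn held 390 ± 44.9 CPM in injured and 482 ± 44.6 CPM in non-injured libraries (SD, n = 3 each). The other 15, summed without Gsn after the values were seen, came to 282 to 322 CPM in injured and 250 to 279 CPM in non-injured libraries, and their part in the result was not tested. Of 9 markers of myofibroblasts and mural cells 0 passed by edgeR, DESeq2 or limma-voom, 1 had an unadjusted p under 0.05, and Cnn1 had no row in the table used here. Their sum of 1987 to 2384 CPM in injured and 1523 to 2179 CPM in non-injured libraries is mostly desmin, Des, which muscle fibres also express (2084 ± 217 CPM in injured and 1650 ± 351 CPM in non-injured libraries; SD, n = 3 each). Rgs5 of pericytes had a log2 fold change of 0.11 ± 0.17 (SE).

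Some genes of the tendon, macrophage and red cell lists rose beside the members, and their part in the result was not tested. Of 6 genes of the tendon list that passed the filter 3 rose, Prg4, Col12a1 and Cilp, 3.82-fold, 2.96-fold and 2.17-fold (edgeR adjusted p = 0.00113, 0.00526 and 0.0235). None of these is a defining gene of tendon cells. Of those that are, Mkx, Tnmd and Kera had no row in the table used here. With the replicate block 4 rose, the added gene being Scx, a transcription factor of tendon, named after its values were seen. Fmod and Cilp2 passed in neither fit and their groups overlapped. Their log2 fold changes were -0.22 ± 0.22 and 0.50 ± 0.51 (SE), and they too are named after their values were seen. The tendon list summed to 129 to 165 CPM in injured and 61.2 to 72.4 CPM in non-injured libraries; 1 of its genes rose without injured C and 2 without injured A, non-injured B or non-injured C. Of 15 macrophage and monocyte markers 6 rose, Lyz2, Itgam, C1qb, Ctss, Lgals3 and Mrc1, between 2.06-fold and 6.42-fold. The median log2 fold change of the 15 was 1.68, against 0.96 for the members. An unadjusted p under 0.05 was reached by 13, all positive. In 13 every injured library lay above all 3 non-injured ones, against 11.9% of all genes tested. The list summed to 138 to 232 CPM in injured and 62.9 to 74.6 CPM in non-injured libraries. Its count of genes higher was 11 with the replicate block and 4 without injured A or non-injured B. It was 2 and 1 when letter C was left out of the injured and of the non-injured group. Red cell genes summed to 132 to 324 CPM in injured and 71.4 to 151 CPM in non-injured libraries, with a median log2 fold change of 1.37. Of these 5 genes 1, Hba-a1, passed the test, and 4 did with the block, all of them globin genes. Alas2, which passed in neither fit, had a log2 fold change of 0.06 ± 0.25 (SE), with the groups overlapping, and is named after its values were seen. Slc4a1 had no row in the table used here. Globin genes are near-identical copies, and Hba-a1 lost its call in 4 of the 6 fits without 1 library.

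Platelets store Thbs1, fibronectin and SPARC. Of 10 platelet symbols 6, among them Ppbp and Gp9, had no row in the table used here, and of the 3 kept 0 passed by edgeR, DESeq2 or limma-voom and 2 had an unadjusted p under 0.05. The 4 with a row summed to 14.7 to 18.8 CPM in injured and 10.97 to 13.5 CPM in non-injured libraries. The median log2 fold change of the 3 kept was 0.85. Gp1ba had a log2 fold change of 0.05 ± 0.27 and Itga2b, also counted among the receptors, 0.85 ± 0.35 (SE). Pf4, named after its values were seen, had 1.31 ± 0.54 (SE), with the groups overlapping. Of 11 endothelial and 8 satellite cell markers kept 0 passed by edgeR, DESeq2, limma-voom or with the block, with 1 and 0 at an unadjusted p under 0.05 and medians of 0.22 and 0.00. The endothelial list summed to 144 to 154 CPM in injured and 126 to 137 CPM in non-injured libraries, and the satellite cell list to 91.7 to 127 CPM in injured and 88.5 to 128 CPM in non-injured libraries; Cdh5, Flt1, Sdc4 and Myod1 had log2 fold changes from -0.07 to 0.11. Muscle fibre genes had a median of -0.06, with 0 of 15 passing by any of those fits and 0 at an unadjusted p under 0.05, and Ttn and Neb at -0.10 ± 0.12 and 0.00 ± 0.13 (SE).

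**Figure D4:**
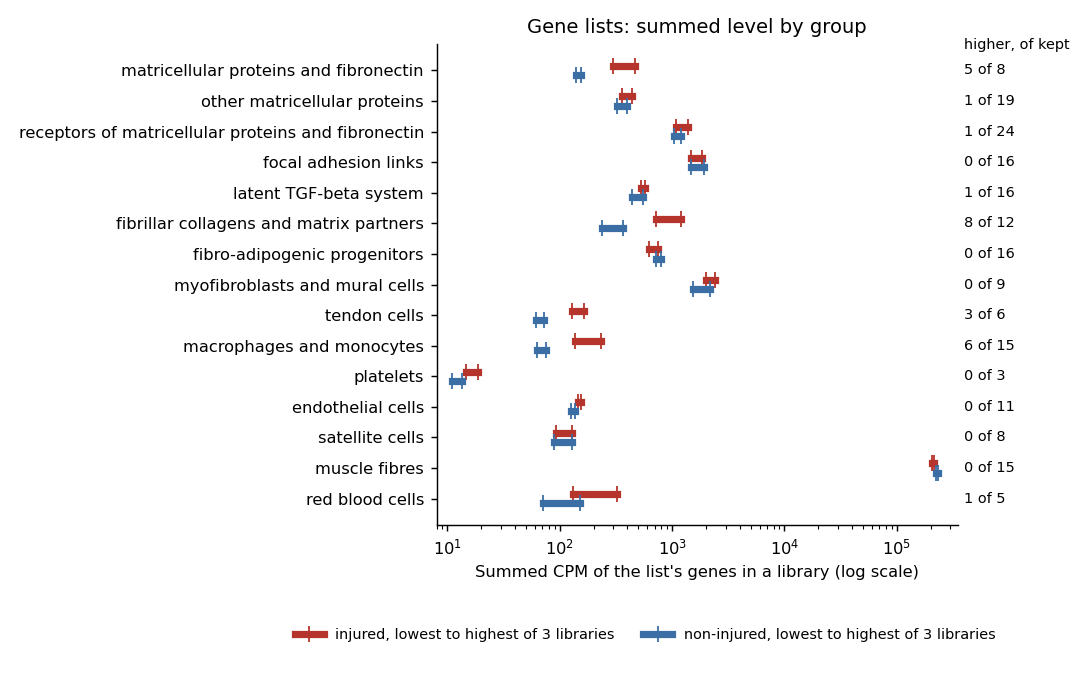
Summed CPM of each gene list (log axis), from the lowest to the highest of the 3 injured (red) and 3 non-injured (blue) libraries, with the number of genes higher in injured muscle of those kept by the filter. The ranges of the 8 genes, 296 to 466 CPM in injured and 139 to 155 CPM in non-injured libraries, lie apart, as do those of the collagen, tendon, macrophage, platelet, endothelial and muscle fibre lists, the last lower in injured muscle.

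**Figure D5:**
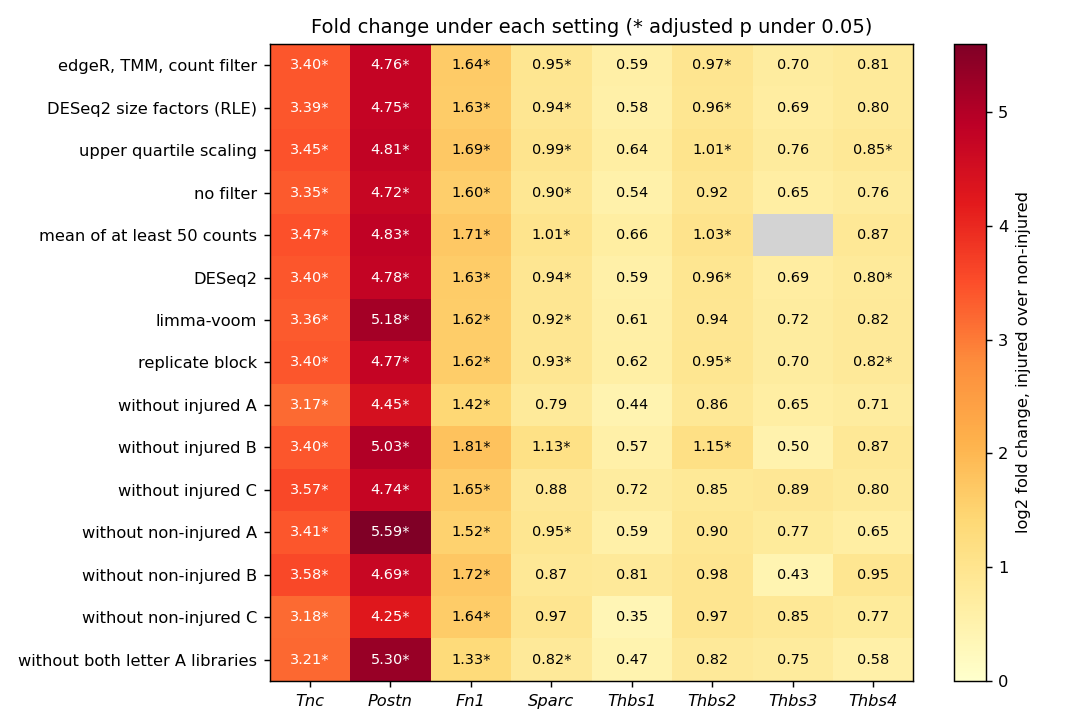
Log2 fold change of each of the 8 genes, injured over non-injured, under each setting (colour and number); a star marks an adjusted p under 0.05 and the grey cell a gene that did not pass that filter. Tnc, Postn and Fn1 carry a star in all settings, Sparc and Thbs2 in some, Thbs4 with upper quartile scaling, DESeq2 and the replicate block, and Thbs1 and Thbs3 in none.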

How the data were processed

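RNA of 3 injured and 3 non-injured quadriceps libraries was analysed from 1 table of estimated counts per gene that the authors deposited, in which 72.2% to 74.5% of a library's values were whole. The submitters' processing notes list Partek, STAR 2.7.8a and DESeq2 and the builds mm10 and hg19; the sources used here do not give the counter, its strand setting or the annotation release. Every row reached at least 10 in some library, so scarcer genes were not analysed here.

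These estimated counts were rounded. filterByExpr kept genes (16095 of 20015), TMM set the scaling, and edgeR 4.0.16 in R 4.3.3 gave the quasi-likelihood F test, two-sided, injured over non-injured, with Benjamini-Hochberg adjustment over all genes kept and a threshold of 0.05. The SE was taken from F (size of the log2 fold change divided by the root of F), and 95% intervals use the degrees of freedom of that test. CPM use the scaled totals; log2 CPM add 2 counts. TPM use GENCODE M21 exon lengths for 19545 rows. Promoter windows are from RefSeq. The fits were tested on simulated data with the same dispersion for every gene and no effect of the letter. That check does not cover genes of differing dispersion or differences between letters.

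Same-letter libraries deviated together from their group means (correlations of 0.315, 0.201 and 0.108 for A, B and C over 16095 genes). Between unlike letters the correlations ran from -0.232 to 0.0693. The labels do not say what the letter means, so the edgeR test was unpaired. The letter entered as a block in an alternative fit only. Blocked values are given for members and for list counts where they change a call. Whether each library is a separate animal is not stated in the labels; the p-values therefore reflect only library-to-library spread, which may be technical. Library totals of 6.45 to 8.75 M counts leave genes such as Thbs3 with few counts.

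Members, gene lists and motifs were chosen with earlier results of these data known, and lists are described by counts and medians. Named genes were all members, from each list the genes past the test (up to 6) or, where there were none, the 2 most abundant, and for each member the 3 genes of highest Pearson r; exceptions are said to be named after their values were seen. Alternatives were other scalings (RLE, upper quartile), filters, DESeq2 1.42.0, limma-voom (limma 3.58.1), the replicate block, leaving out each library, and leaving out both letter A libraries.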

Additional observations from a re-analysis of the deposited data

How the results depend on the processing

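Tnc, Postn and Fn1 kept their direction and their call in all 14 alternatives, and Thbs1 and Thbs3 passed in 0 of 14 and 0 of 13; no member changed sign in any of them. Thbs3 gave no value with a mean of at least 50 counts, since it did not pass that filter. Sparc kept its call in 10 and Thbs2 in 6 of 14, and Thbs4 gained one in 3. The count of members higher, 5 of 8, was 3 to 5 in the fits without 1 library, 6 with the replicate block, DESeq2 or upper quartile scaling, and 4 with limma-voom, with no filter or without both letter A libraries; 0 members were lower in any alternative. Over all genes, 115 higher genes became 252 with DESeq2, 53 with limma-voom, 516 with the replicate block and 20 to 104 without 1 library. The 5 lower genes became 17 with no filter, 3 with a mean of at least 50 counts, 75 with DESeq2, 427 with the replicate block, 132 without both letter A libraries and 0 to 25 without 1 library. The cause of these shifts was not tested. Other scalings moved the median of all genes to between -0.01 and 0.05 on the log2 scale. The block changed no call of a member other than that of Thbs4. Among the lists, 6 macrophage genes became 11 with the block, 10 with DESeq2 and 3 with limma-voom. Low counts limit Thbs3 (mean of 20.2) and the non-injured level of Postn (27 counts in 3 libraries). Intervals from counts cover counting error only.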
